A study of Rattus norvegicus with 6 samples.

Results

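The 35 genes described here encode enzymes, carriers and accessory proteins of fatty acid oxidation in the mitochondria and peroxisomes of the rat. A gene was a member if its symbol stood on a list of 35 and a non-control probe of the array carried 1 of its RefSeq transcripts. All 35 had such a probe among the 15284 genes that could be named on the array, and all 35 were among the 11748 genes tested and well above background on all 6 arrays. By the usual location of their proteins, 19 were counted as mitochondrial and 9 as peroxisomal. The other 7 (Acsl1, Slc27a2, Eci2, Ech1, Crat, Acot1 and Retsat), whose proteins lie in both organelles or elsewhere in the cell, entered neither class. No member passed the adjusted test between the groups. The lowest p belonged mostly to members with lower levels in treated rats, among them both subunits of the mitochondrial trifunctional protein (Hadha and Hadhb), the isomerases Eci1 and Ech1, Pex11a and Retsat, at 0.691 to 0.794 times the corn oil level. Under the 75th percentile scaling used first below, carnitine entry genes, most acyl-CoA dehydrogenases and most peroxisomal enzymes had overlapping groups; after quantile normalization fewer did.

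RNA came from the renal cortex of male Crl:CD(SD) Sprague-Dawley rats, bought at 5 weeks of age and kept on a basal diet. In the control group 3 rats were given corn oil for 4 weeks, and in the treated group 3 rats were given 2-amino-4-nitrophenol for 4 weeks at 750 mg/kg/day. The compound is an aromatic amine with a nitro group, known from oxidative hair colourants. Each rat gave 1 single-colour array, and the design text calls the rats of a group biological replicates. The route, and the vehicle of the treated rats, are not given in the sources used here, and there was 1 dose and 1 time.

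Corn oil arrays were brighter: their unscaled 75th percentile was 743 to 852, against 564 to 685 for treated arrays. The share of probes well above background was 68.1% to 70.9% on corn oil arrays and 61.6% to 66.3% on treated arrays, and no probe was saturated. Corn oil replicate 2 was alone on its slide and the other 5 arrays shared another. All 11 markers of the first proximal tubule segments (S1 and S2) and all 7 of the last segment (S3) were tested. Levels below are log2 values of the processed intensity relative to the 75th percentile of the array, and a change is the treated mean minus the corn oil mean, with its standard error from limma (n = 3 rats per group). Levels of different genes come from different probes and are not set against each other. In whole cortex, fewer cells of a type and less RNA per cell cannot be told apart.

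Fatty acids are first joined to coenzyme A. Long chains then enter mitochondria as carnitine esters, through an outer and an inner carnitine palmitoyltransferase and the carrier between them, and each turn of the mitochondrial spiral (dehydrogenation, hydration, a second dehydrogenation, thiolysis) releases acetyl-CoA for the citric acid cycle. Peroxisomes shorten very long, branched and bile acid precursor chains, using oxidases that make hydrogen peroxide in place of the first dehydrogenase. Proximal tubule cells hold many mitochondria and peroxisomes and use fatty acids as a main fuel. Many of these genes are targets of the nuclear receptor PPAR alpha, which binds, with RXR, to pairs of the AGGTCA half-site.

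No member passed the adjusted threshold of 0.05 (Benjamini-Hochberg over 11748 genes in limma); over all genes tested 3, or 0.0255%, passed it. The lowest adjusted p of a member was 0.127, that of Retsat. At an unadjusted p under 0.05, 6 members were lower and 3 higher in treated rats, where 7.29% and 14.3% of all genes tested were lower and higher. All 3 treated arrays lay below all 3 corn oil arrays for 7 members (Retsat, Hadhb, Pex11a, Hadha, Ech1, Eci1 and Acaa2), where 10.1% of all genes did so. They lay above all corn oil arrays for 3 members (Echs1, Acox2 and Acads), where 20.1% of all genes did so. The change was below 0 for 21 members and above 0 for 14, and 42.6% of all genes tested were below 0. The median over the members was -0.09 and that over all genes 0.04, and the members' changes ran from -0.53 to 0.65.

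**Figure D1:**
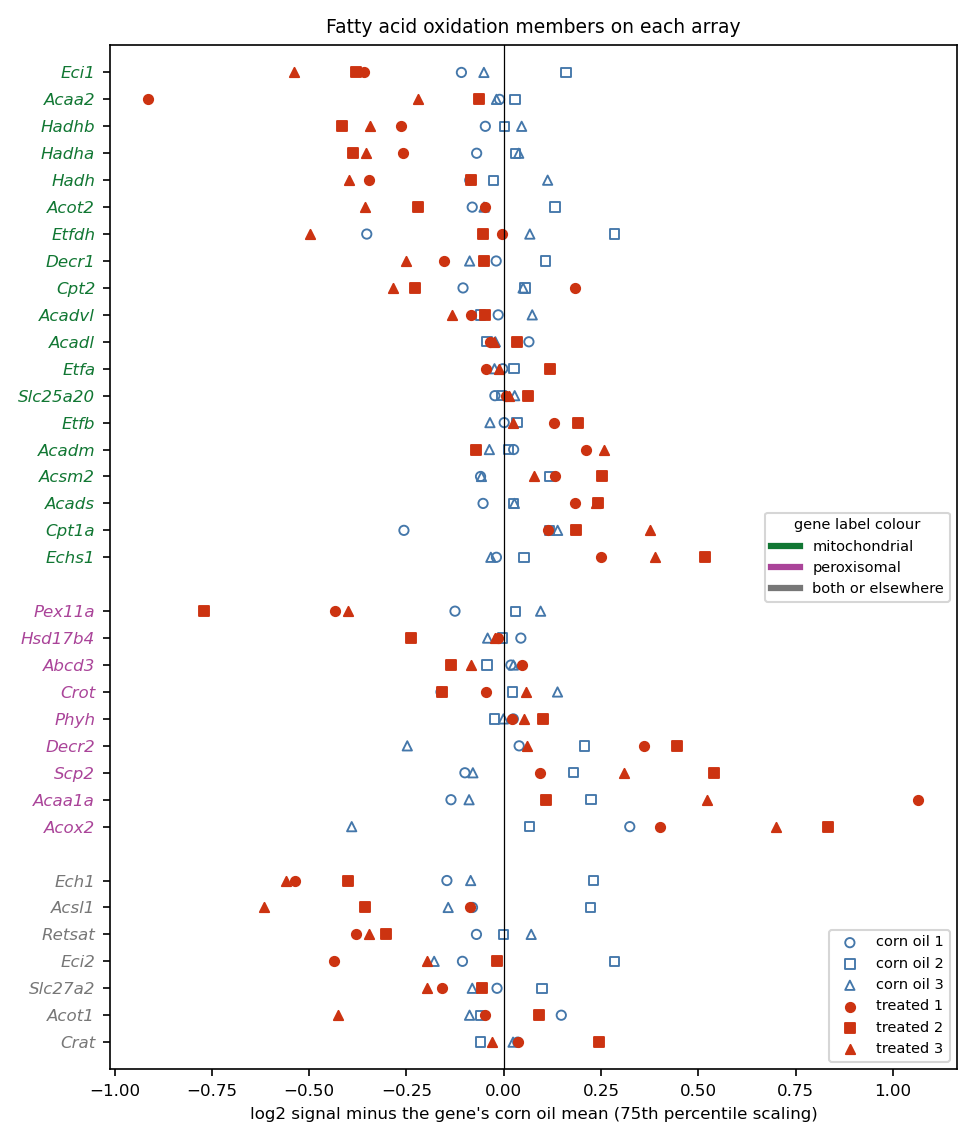
Each row is a member and each point an array, plotted as the log2 signal minus the gene's mean over the 3 corn oil arrays (horizontal axis, 75th percentile scaling), with open symbols for corn oil and filled symbols for treated rats and the gene label coloured by class. The treated points lie left of every corn oil point for 7 members, among them Eci1, Hadhb, Hadha, Pex11a, Ech1 and Retsat, and right of every corn oil point for Echs1, Acads and Acox2 (after quantile normalization Acads overlaps, with a change of -0.02, and on a spike-in scale 0 members lie wholly to the right).

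The starts are shown for 6 of the members whose groups did not overlap, because PPAR alpha acts through the half-site. Of the 6, 5 had lower treated levels (Hadha and Hadhb of the trifunctional protein, Eci1, Pex11a, Retsat) and Echs1 was higher. Each is the stretch from 250 bases before to 50 bases after the gene start in RefSeq, assembly GRCr8, read 5′ to 3′ on the gene's strand. Capitals mark AGGTCA, or its reverse complement TGACCT. Hadha lies at chr6:31907551-31907850 (plus strand) and Hadhb at chr6:31907451-31907750 (minus strand); the pair starts 301 bases apart on opposite strands, and their stretches share 200 bases. Eci1 lies at chr10:13961000-13961299 (plus), Pex11a at chr1:143096442-143096741 (minus), Retsat at chr4:106211209-106211508 (plus) and Echs1 at chr1:204333457-204333756 (minus).
Hadha: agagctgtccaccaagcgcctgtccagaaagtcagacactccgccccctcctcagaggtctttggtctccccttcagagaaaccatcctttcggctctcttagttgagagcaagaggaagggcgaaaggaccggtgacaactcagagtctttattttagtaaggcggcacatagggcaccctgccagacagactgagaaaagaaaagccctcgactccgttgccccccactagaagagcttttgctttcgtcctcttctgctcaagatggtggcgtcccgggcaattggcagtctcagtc
Hadhb: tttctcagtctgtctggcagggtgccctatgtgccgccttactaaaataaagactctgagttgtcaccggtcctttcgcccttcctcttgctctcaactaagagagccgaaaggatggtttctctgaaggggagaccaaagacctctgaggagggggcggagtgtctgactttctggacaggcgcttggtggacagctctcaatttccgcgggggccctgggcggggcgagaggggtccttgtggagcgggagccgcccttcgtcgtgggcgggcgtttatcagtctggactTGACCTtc
Eci1: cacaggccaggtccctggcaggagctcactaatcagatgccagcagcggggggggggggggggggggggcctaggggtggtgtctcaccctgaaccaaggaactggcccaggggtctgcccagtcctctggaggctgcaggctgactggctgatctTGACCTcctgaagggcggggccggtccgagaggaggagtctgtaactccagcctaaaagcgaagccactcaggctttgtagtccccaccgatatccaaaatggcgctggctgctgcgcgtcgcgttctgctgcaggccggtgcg
Pex11a: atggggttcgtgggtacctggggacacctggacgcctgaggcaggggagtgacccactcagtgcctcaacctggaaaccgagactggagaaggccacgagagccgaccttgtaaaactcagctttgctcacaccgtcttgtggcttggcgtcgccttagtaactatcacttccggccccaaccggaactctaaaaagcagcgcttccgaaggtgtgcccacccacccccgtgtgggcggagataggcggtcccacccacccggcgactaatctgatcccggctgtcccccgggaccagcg
Retsat: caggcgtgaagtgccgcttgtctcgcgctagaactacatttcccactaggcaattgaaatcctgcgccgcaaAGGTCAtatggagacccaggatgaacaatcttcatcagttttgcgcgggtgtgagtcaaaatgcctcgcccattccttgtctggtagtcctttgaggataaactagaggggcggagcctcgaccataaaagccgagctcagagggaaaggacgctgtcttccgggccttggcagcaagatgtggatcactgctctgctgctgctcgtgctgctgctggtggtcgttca
Echs1: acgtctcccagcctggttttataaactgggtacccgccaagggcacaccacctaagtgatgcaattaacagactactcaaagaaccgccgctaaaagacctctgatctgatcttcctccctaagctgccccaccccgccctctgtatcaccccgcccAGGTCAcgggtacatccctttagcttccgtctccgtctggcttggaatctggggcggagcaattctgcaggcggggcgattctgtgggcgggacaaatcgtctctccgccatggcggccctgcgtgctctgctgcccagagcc

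Half-sites were found in Hadhb (first base 43 after the start), Eci1 (-94), Retsat (-178) and Echs1 (-93), and not in these stretches of Hadha and Pex11a. The stretches of Acads and Acox2, which also had no overlap but are not printed, held 0 half-sites. Over the 31 members with such a stretch (Acadl, Acaa2, Decr1 and Ech1 had none here), 8, or 25.8%, held AGGTCA on either strand, beside 16.2% of 33469 stretches of the same length. The GC content was 59.0% in the median member and 51.7% in the median of all. A tandem pair of half-sites 1 base apart, AGGTCANAGGTCA on either strand with up to 1 mismatch, was found in 1 member, Acadvl, beside 0.439% of all stretches. The Acadvl match reads AGGTCAGTGGTCA and starts at -17; it overlaps a half-site counted above. A match is a description of the letters and not a binding site.

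These values depend on how the arrays are put on 1 scale, and the change over all genes went with the signal. The tested genes were put in 10 bins of about equal size by mean signal. Under the 75th percentile the median change over all genes went from -0.12 in bin 1, the dimmest, to 0.23 in bin 10, the brightest. Of the members, 22 were in bin 10, 10 in bin 9, 2 in bin 8 and 1, Acox2, in bin 2. In bin 10, 2.89% of all genes had treated arrays entirely below the corn oil arrays and 53.5% entirely above; of the 22 members there, 4 were entirely below (Ech1, Pex11a, Eci1 and Acaa2) and 2 entirely above (Echs1 and Acads). The change of 29 of the 35 members was below the median of its own bin, with a median difference of -0.29.

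After quantile normalization, which gives all arrays the same distribution and takes that trend away (a median change of 0.0005 in bin 10), the members' median was -0.27 and 30 of 35 were below 0, where 50.7% of all genes were. Then 23 members had treated arrays entirely below the corn oil arrays and 2 entirely above, beside 13.6% and 12.4% of all genes. At an unadjusted p under 0.05, 17 were lower and 1 higher, beside 9.53% and 8.23% of all genes. The adjusted threshold was again passed by 0 members, with a lowest adjusted p of 0.102 in limma, and by 0.034% of all genes. The 7 members entirely below under the 75th percentile were entirely below here too.

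**Figure D2:**
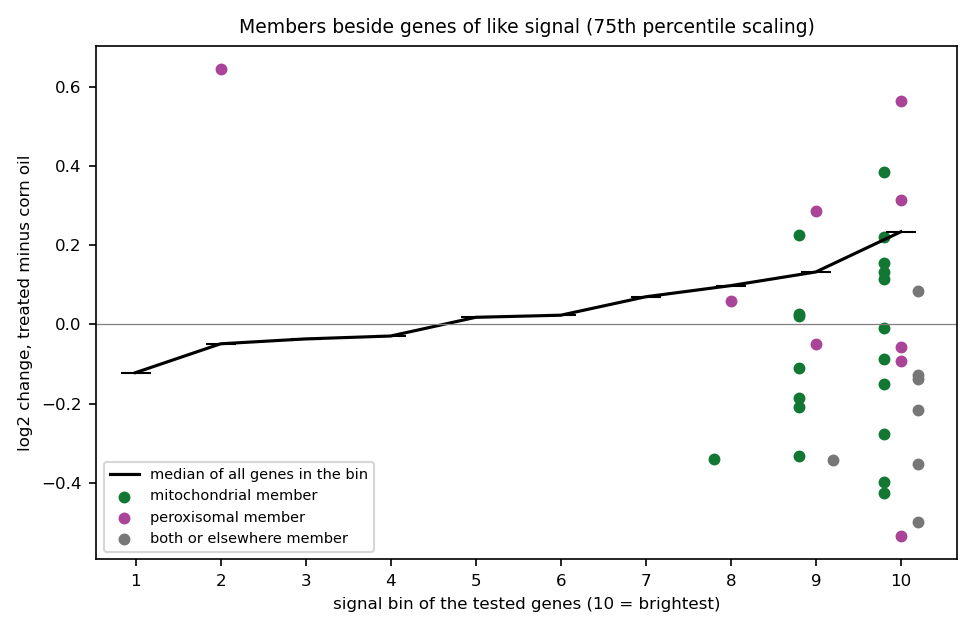
The log2 change (vertical axis, treated minus corn oil, 75th percentile scaling) of each member is plotted against its signal bin (horizontal axis, 10 is brightest), and the line gives the median of all genes in each bin. The line rises from -0.12 to 0.23, and 29 of the 35 points lie below it.

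Activation came first in the order of the pathway. Acsl1, a long-chain acyl-CoA synthetase of the mitochondrial outer membrane and endoplasmic reticulum, had levels of 5.39, 5.70 and 5.33 on the corn oil arrays and 5.39, 5.12 and 4.86 on the treated arrays, a change of -0.35 ± 0.17 (SE; limma, adjusted p = 0.277). Treated replicate 1 reached into the corn oil range on this, its brightest probe. Its other 3 probes gave changes of -0.67, -0.67 and -0.51, and on each of them the treated arrays lay entirely below. Slc27a2, a very-long-chain acyl-CoA synthetase of the peroxisome and endoplasmic reticulum, had a change of -0.14 ± 0.09 with overlapping arrays, and its dimmer probe one of -0.34 without overlap. Acsm2, a medium-chain acyl-CoA synthetase of the mitochondrial matrix, had levels of 7.51, 7.69 and 7.51 in corn oil and 7.70, 7.82 and 7.65 in treated rats, which overlap. Its change was 0.15 ± 0.09. After quantile normalization it was -0.16, with treated arrays entirely below, as they then were for Acsl1 (-0.57) and Slc27a2 (-0.45).

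The 3 genes of entry into mitochondria had changes whose intervals held 0. Cpt1a, the outer membrane carnitine palmitoyltransferase and the regulated step of entry, had levels of 2.80, 3.18 and 3.20 in corn oil and 3.17, 3.25 and 3.44 in treated rats, a change of 0.23 ± 0.14 with a 95% interval of -0.11 to 0.56. Corn oil replicate 1 was low, and without it the change was 0.10. Slc25a20, the carnitine-acylcarnitine carrier of the inner membrane, had 3.19, 3.21 and 3.25 against 3.22, 3.28 and 3.23, a change of 0.03 ± 0.07 with an interval of -0.15 to 0.20. The levels of Cpt2, the inner membrane transferase, were 3.19, 3.35 and 3.35 against 3.48, 3.07 and 3.01, a change of -0.11 ± 0.14. Treated replicate 1 was the highest Cpt2 array of all and the other 2 treated arrays were the lowest. Adjusted p in limma was 0.376 for Cpt1a, 0.847 for Slc25a20 and 0.680 for Cpt2.

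For peroxisomal entry and the carnitine shuttles out of it the groups overlapped under the 75th percentile. Abcd3, the peroxisomal membrane transporter of long and branched chains, had 6.18, 6.12 and 6.19 in corn oil and 6.21, 6.03 and 6.08 in treated rats, a change of -0.06 ± 0.08. Crot, the carnitine octanoyltransferase that exports shortened chains, had 2.85, 3.03 and 3.15 against 2.96, 2.85 and 3.07, a change of -0.05 ± 0.11. After quantile normalization the change was -0.17 for Crot, still with overlap, and -0.31 for Abcd3, whose treated arrays then lay entirely below (limma, adjusted p = 0.267). Crat, the carnitine acetyltransferase of both organelles, had a change of 0.08 ± 0.10 (-0.18 after quantile normalization, with treated arrays entirely below), and was the only 1 of the 13 members with several probes whose probes differed in direction (0.08 and -0.18).

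The 4 acyl-CoA dehydrogenases, which take the first step of the mitochondrial spiral at different chain lengths, differed in direction under the 75th percentile. Very-long-chain Acadvl had 4.42, 4.37 and 4.51 in corn oil and 4.35, 4.38 and 4.30 in treated rats, and a change of -0.09 ± 0.08 (interval -0.28 to 0.10). Long-chain Acadl had 6.41, 6.30 and 6.32 against 6.31, 6.38 and 6.32, and a change of -0.01 ± 0.08 (interval -0.19 to 0.17). Medium-chain Acadm had 6.32, 6.31 and 6.26 against 6.51, 6.23 and 6.55, with treated replicate 2 below every corn oil array and the other 2 treated arrays above; its change was 0.13 ± 0.11 (interval -0.13 to 0.40). Short-chain Acads, whose arrays are listed because they did not overlap, had 5.39, 5.47 and 5.47 against 5.62, 5.68 and 5.68, and a change of 0.22 ± 0.07 (limma, adjusted p = 0.177). After quantile normalization the 4 changes were -0.27 (Acadvl), -0.27 (Acadl), -0.14 (Acadm) and -0.02 (Acads), so that the direction of Acadm and Acads turned, and the treated arrays of Acadvl and Acadl lay entirely below. Electrons of these enzymes pass through the electron transfer flavoprotein, whose subunits Etfa (0.02 ± 0.08) and Etfb (0.11 ± 0.08) had overlapping arrays and went to -0.13 and -0.16 after quantile normalization. Etfdh, the oxidoreductase that hands those electrons to ubiquinone, varied widely, with 2.91, 3.55 and 3.33 in corn oil and 3.26, 3.21 and 2.77 in treated rats. Its groups overlapped, and its change was -0.19 ± 0.21.

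Of the 19 mitochondrial members 4 were entirely below and 2 entirely above under the 75th percentile, beside 10.1% and 20.1% of all genes. Among them, Hadha, Hadhb and Acaa2 (below) and Echs1 (above) belong to the later steps of the spiral. After quantile normalization 12 mitochondrial members were entirely below, among them Slc25a20, Acadvl, Acadl and Etfa. Entirely above was 1, and the shares of all genes were 13.6% and 12.4%. Hadha and Hadhb, the pair with divergent starts printed above, encode the alpha and beta subunits of the trifunctional protein, which carries out hydration, the second dehydrogenation and thiolysis of long chains at the inner membrane. Hadha had 3.17, 3.27 and 3.28 in corn oil and 2.99, 2.86 and 2.89 in treated rats, a change of -0.33 ± 0.08 (interval -0.53 to -0.14), or 0.794 times the corn oil level (limma, adjusted p = 0.130). Hadhb had 2.81, 2.86 and 2.91 against 2.60, 2.45 and 2.52, a change of -0.34 ± 0.08 (interval -0.54 to -0.15), or 0.790 times (limma, adjusted p = 0.130). For both subunits every treated array was below every corn oil array, on all 3 probes of Hadha (-0.33, -0.30 and -0.27) and on the probe of Hadhb.

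The soluble matrix enzymes that follow lay on both sides of their corn oil levels. Hadh, the hydroxyacyl-CoA dehydrogenase of medium and short chains, had a change of -0.28 ± 0.11 (interval -0.55 to 0.00), and its dimmer probe one of -0.53 without overlap. After quantile normalization the Hadh change was -0.60, with treated arrays entirely below (limma, adjusted p = 0.110). Acaa2, the matrix ketoacyl-CoA thiolase, had 5.97, 6.005 and 5.96 in corn oil and 5.06, 5.91 and 5.75 in treated rats, values listed because the groups did not overlap. Treated replicate 1 was far below the rest: the Acaa2 change of -0.40 ± 0.22 (interval -0.93 to 0.14; limma, adjusted p = 0.333) became -0.14 without it. Echs1, the short-chain enoyl-CoA hydratase, went the other way, with 6.65, 6.72 and 6.63 in corn oil and 6.92, 7.18 and 7.05 in treated rats, all above the corn oil arrays. Its change was 0.38 ± 0.09 (interval 0.16 to 0.61), or 1.31 times (limma, adjusted p = 0.130), and 0.08 after quantile normalization. Echs1 also serves the breakdown of branched-chain amino acids.

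Unsaturated chains need isomerases and reductases besides. Eci1, the mitochondrial enoyl-CoA isomerase, had 6.20, 6.47 and 6.26 in corn oil and 5.95, 5.93 and 5.77 in treated rats, a change of -0.43 ± 0.11 (interval -0.68 to -0.17), or 0.744 times (limma, adjusted p = 0.130). Ech1, a dienoyl-CoA isomerase found in both organelles, had 4.88, 5.26 and 4.94 against 4.49, 4.63 and 4.47, a change of -0.50 ± 0.12 (interval -0.80 to -0.20), or 0.708 times (limma, adjusted p = 0.130). Every treated array was below every corn oil array for both genes. The highest was corn oil replicate 2, the array on its own slide, and without it the changes were -0.35 for Eci1 and -0.38 for Ech1. Eci2, an isomerase of peroxisomes and mitochondria, overlapped, with a change of -0.22 ± 0.17, and of -0.07 without corn oil replicate 2. The dienoyl-CoA reductases had changes of -0.15 ± 0.09 (Decr1, mitochondrial) and 0.29 ± 0.16 (Decr2, peroxisomal), with overlapping arrays in both.

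The enzymes within peroxisomes had changes from -0.09 to 0.65 under the 75th percentile. Acox2, the oxidase of branched chains and bile acid precursors, was the dimmest member, with -3.30, -3.56 and -4.01 in corn oil and -3.22, -2.79 and -2.92 in treated rats. The change was 0.65 ± 0.21 (interval 0.14 to 1.15), or 1.56 times (limma, adjusted p = 0.171), and 0.68 after quantile normalization; treated replicate 1 was just above the highest corn oil array. Acaa1a, a peroxisomal thiolase, had 6.11, 6.47 and 6.16 against 7.32, 6.36 and 6.77. Its treated arrays had the widest spread of any member (SD 0.480), and its groups overlapped. The change was 0.57 ± 0.25 (limma, adjusted p = 0.253), and 0.31 on the same probe without treated replicate 1, the array that was also far off for Acaa2. Of its other 2 probes, both with overlapping groups, the one of nearly the same brightness gave 0.06 and the dimmer 0.48. Acaa1b, a near-identical copy, was at 0.73 ± 0.32 with overlapping groups, and probes may not separate the pair. Scp2, the sterol carrier protein whose long form is a thiolase, had a change of 0.31 ± 0.14, and of -0.00339 after quantile normalization. Hsd17b4, the hydratase and dehydrogenase of the middle peroxisomal steps, had 6.16, 6.12 and 6.08 against 6.10, 5.88 and 6.10, a change of -0.09 ± 0.09. After quantile normalization it was -0.34, with treated arrays entirely below (limma, adjusted p = 0.261). Phyh, the hydroxylase that opens the alpha oxidation of phytanic acid, had a change of 0.06 ± 0.07, and of -0.04, with treated arrays entirely below, after quantile normalization.

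Pex11a, a membrane protein that promotes elongation and division of peroxisomes, stood apart from these enzymes. Its levels were 5.22, 5.38 and 5.44 in corn oil and 4.91, 4.58 and 4.95 in treated rats, with no overlap. Its change of -0.53 ± 0.13 (interval -0.84 to -0.22), or 0.691 times (limma, adjusted p = 0.130), was the most negative among the 35 members under the 75th percentile. The other probes gave -0.82 and -0.64, also without overlap.

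Acot1 and Acot2, the cytosolic and mitochondrial thioesterases that release fatty acids from coenzyme A, are close paralogs, and probes that detect both transcripts are possible. Acot1 had 5.17, 4.96 and 4.93 in corn oil and 4.97, 5.11 and 4.60 in treated rats, a change of -0.13 ± 0.15. Acot2 had 3.94, 4.16 and 3.97 against 3.97, 3.80 and 3.67, a change of -0.21 ± 0.11, and its dimmer probe one of -0.66 without overlap. After quantile normalization the changes were -0.35 (Acot1) and -0.37 (Acot2), with treated arrays entirely below for each. Retsat, the retinol saturase of the endoplasmic reticulum, had 3.52, 3.59 and 3.66 against 3.21, 3.29 and 3.24, with tight groups that did not overlap. Its change was -0.34 ± 0.08 (interval -0.53 to -0.15), or 0.788 times. Over the 13 members with several probes, 12 of the 18 probes that were not the brightest had treated arrays entirely below the corn oil arrays, and 1, that of Phyh, entirely above; of 8597 such probes over all genes 15.7% and 13.6% did. Acsl1 alone gave 3 of the 12.

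**Figure D3:**
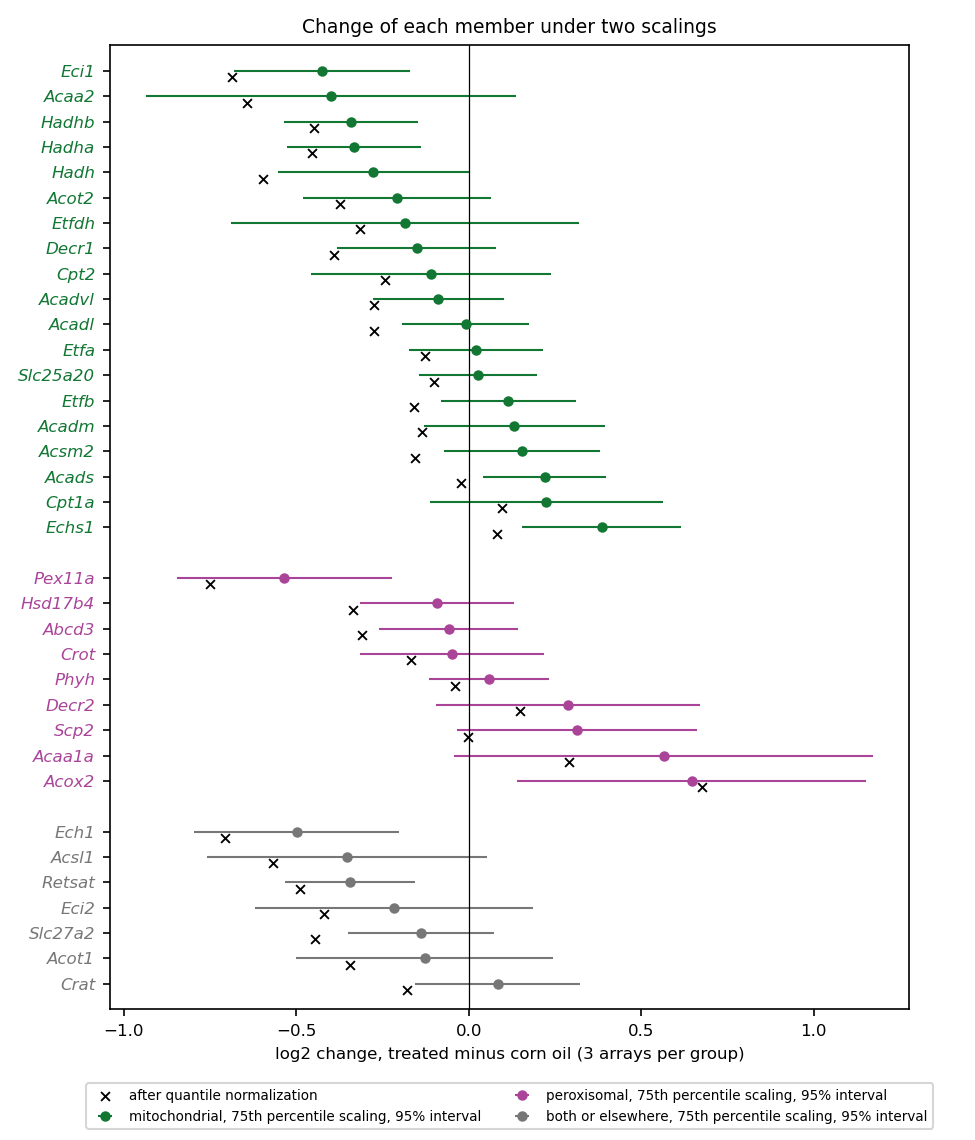
The log2 change of each member (horizontal axis, treated minus corn oil, 3 arrays per group) is given as a point with its 95% interval under 75th percentile scaling and as a cross after quantile normalization. The crosses lie left of the points for all members but Acox2 (0.65 and 0.68). The 95% interval lies wholly below 0 for Eci1, Hadhb, Hadha, Pex11a, Ech1 and Retsat.

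Compared by compartment, the mitochondrial members had a median change of -0.09 and the peroxisomal members one of 0.06, which was -0.04 after quantile normalization and -0.26 when arrays were scaled on 7 spiked control probes. That spike-in scale put the median of all genes at -0.28. It takes 1 value off each array, so the members' median relative to all genes, -0.13, had to equal that under the 75th percentile. The difference, mitochondrial minus peroxisomal, was -0.15, and -0.23 after quantile normalization. Array by array this difference was -0.07, 0.00 and 0.02 on corn oil arrays and -0.08, -0.15 and -0.19 on treated arrays, which do not overlap. After quantile normalization the treated arrays gave -0.04, -0.09 and -0.26, and replicate 1 lay within the corn oil range. Counting the members of both organelles in a compartment left a difference of -0.05. Of the mitochondrial members 4 of 19 were entirely below and 2 entirely above, and of the peroxisomal members 1 of 9 each way, Pex11a below and Acox2 above, beside 10.1% of all genes entirely below and 20.1% entirely above. After quantile normalization 12 mitochondrial members were entirely below and 1 above, and 4 peroxisomal members below and 1 above, beside 13.6% and 12.4% of all genes. Members in both or elsewhere had the lowest median, -0.22, with 6 of 7 below 0. No test was made between the classes, since genes are not replicates.

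Set against genes of like signal, the change was below the median of the bin for 17 of 19 mitochondrial members (median difference -0.24), for 5 of 9 peroxisomal members (-0.04) and for all 7 of the others (-0.45). The median over members of the standard deviation between rats was 0.091 in corn oil and 0.126 in treated rats. The lowest treated array was replicate 3 for 15 members, replicate 1 for 12 and replicate 2 for 8. Corn oil replicate 2 was the highest corn oil array for 17 members. Without treated replicate 3 the median change of the mitochondrial members was -0.02 and the difference between the compartments -0.08; without corn oil replicate 2 they were -0.04 and -0.09.

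Other genes of the pathway were taken from lists of their function. The counts of each list stand beside 10.1% of all genes entirely below and 20.1% entirely above. Of 34 other mitochondrial fatty acid oxidation genes 29 were tested: 1 was entirely below and 9 entirely above, and their median was 0.13 (0.01 after quantile normalization, -0.19 on the spike-in scale). The lowest p belonged to Acot13, a mitochondrial thioesterase, at 0.44 ± 0.10, and to Slc22a5, the plasma membrane carnitine transporter, at -0.40 ± 0.10 (limma, adjusted p = 0.130 for both). Slc22a5 had 2.67, 2.49 and 2.56 in corn oil and 2.12, 2.31 and 2.10 in treated rats, without overlap. Of 41 other peroxisomal genes 34 were tested, with 1 entirely below, 7 entirely above and a median of 0.06 (0.00 after quantile normalization, -0.26 on the spike-in scale). The 1 below was Ehhadh, the bifunctional enzyme of peroxisomal beta oxidation and a known PPAR alpha target, with 2.95, 3.61 and 3.19 against 2.75, 2.21 and 2.02. Its change of -0.92 ± 0.24 is 0.528 times the corn oil level (limma, adjusted p = 0.139). Amacr, the racemase for branched chains, was at 0.63 ± 0.16 and catalase, Cat, at 0.02 ± 0.20. Of 15 peroxins tested, the peroxisome assembly proteins, 0 were entirely below and 3 entirely above, with a median of 0.08 (-0.24 on the spike-in scale). The shares entirely above, 20% of the peroxins and 20.6% of the other peroxisomal genes, were near that of all genes. Pex14 (0.23 ± 0.07) and Pex2 (0.20 ± 0.09) had the lowest p of the peroxins.

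Known PPAR targets outside beta oxidation had 10 of 30 tested genes entirely below and 2 entirely above, beside 10.1% and 20.1% of all genes. Their median was -0.10, and -0.27 after quantile normalization. Of the 30, 18 were below 0 and 12 above, the highest at 1.48, and 25 were below 0 after quantile normalization. Angptl4, a secreted inhibitor of lipoprotein lipase, was at -0.997 ± 0.19, Pdk4, which restrains pyruvate dehydrogenase, at -0.97 ± 0.23, and Cyp4a1, a fatty acid hydroxylase, at -0.62 ± 0.17, each without overlap. Corn oil replicate 2 was the highest array for Ehhadh, Angptl4, Pdk4 and Cyp4a1 too. Without it their changes were -0.74, -0.82, -0.74 and -0.46. Pdk4 had a low signal, with a mean level of -3.02 in corn oil and -3.99 in treated rats. Among the alternative settings its change was as small as -0.35. Among 19 tested receptors and coregulators 7 were entirely below and 1 entirely above, with a median of -0.22. The coactivators Ppargc1b (-0.55 ± 0.13, limma, adjusted p = 0.127) and Ppargc1a (-0.36 ± 0.15) were among the 7. Without corn oil replicate 2, the highest array for both, their changes were -0.49 and -0.21. Esrra, an orphan receptor, was the 1 above at 0.23 ± 0.07 (0.02 after quantile normalization). Ppara itself varied too much to place, at 0.66, -0.49 and 0.45 in corn oil and 1.02, -0.45 and -0.61 in treated rats, and Hnf4a was at 0.16 ± 0.14 with overlap.

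Citric acid cycle genes, which take up the acetyl-CoA, were mostly as bright as the members: 20 of the 27 tested were in bin 10. Of the 27, 1 was entirely below and 15 entirely above, with a median of 0.15 that turned to -0.01 after quantile normalization and -0.17 on the spike-in scale. Of all genes 10.1% were entirely below and 20.1% entirely above, and in bin 10 2.89% and 53.5% were. Of the 27 citric acid cycle genes 15 lay below the median of their bin (median difference -0.009), where 29 of the 35 members did. The change was also below the bin median for 25 of 30 PPAR targets (median difference -0.21) and 10 of 11 S1 and S2 markers (-0.39). Of 29 other mitochondrial fatty acid oxidation genes, 13 lay below it and 16 above (median difference 0.03). Cs, citrate synthase, was at 0.39 ± 0.08 and Pdk1 at 0.26 ± 0.08. Fatty acid synthesis and storage genes had a median of 0.02 (-0.29 on the spike-in scale), with 1 of 21 entirely below and 4 entirely above; Me1, the malic enzyme that supplies NADPH, was at 1.17 ± 0.22 or 2.25 times (limma, adjusted p = 0.113) and the desaturase Fads2 at 0.38 ± 0.08. None of the genes in these lists passed the adjusted threshold.

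**Figure D4:**
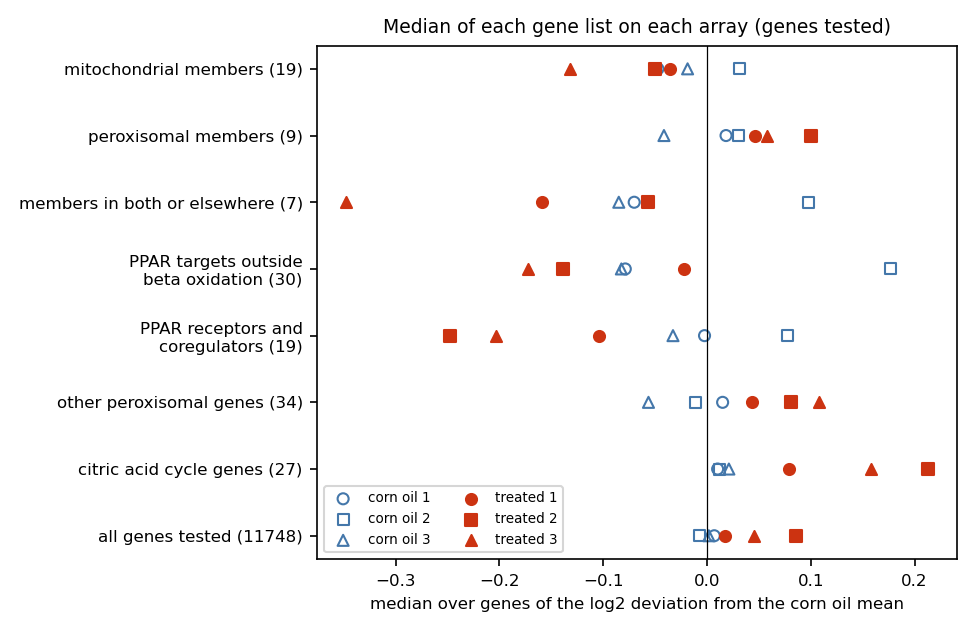
Each point is 1 array's median, over the tested genes of a list (number in brackets), of the log2 deviation from the corn oil mean (horizontal axis, 75th percentile scaling). The mitochondrial members lie from -0.13 to -0.04 on treated arrays and the peroxisomal members from 0.05 to 0.10. The peroxisomal and citric acid cycle medians turn below 0 after quantile normalization and, with that of the other peroxisomal genes, on the spike-in scale.

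Summed levels of some cell type markers differed with the groups. The counts of markers stand beside 10.1% of all genes entirely below and 20.1% entirely above. The summed level of the 11 S1 and S2 markers was 68.0 to 68.6 in corn oil and 65.8 to 67.5 in treated rats. Of these markers 3 were entirely below and 3 entirely above, and 7 were below 0, with a median of -0.15. After quantile normalization 10 were below 0, with a median of -0.42. Then 8 were entirely below and 0 above, beside 13.6% and 12.4% of all genes. Slc34a1, the phosphate transporter of these segments, was at 0.19 ± 0.08 (-0.15 after quantile normalization). For the 7 S3 markers the sum was 3.61 to 5.47 in corn oil and 8.04 to 12.2 in treated rats, with 4 entirely above. The sum of the 5 tested of 6 erythroid markers was 17.7 to 18.6 in corn oil and 21.5 to 26.7 in treated rats, with 4 entirely above. Fat cells are rich in some members: for the 7 tested of 9 white adipocyte markers the sum was -9.76 to -7.92 in corn oil and -8.27 to -5.78 in treated rats, which overlap, and Adipoq was at 0.16 ± 0.28. Leptin, Lep, was well above background on 1 array in all, and the brown fat genes Dio2 and Elovl3 on none. The brown fat markers Ucp1, Cidea and Cox8b were well above background on all 6 arrays, and their sum was -7.61 to -7.25 in corn oil and -6.84 to -5.94 in treated rats; Cox8b was entirely above, at 1.16 ± 0.17 (limma, adjusted p = 0.0805), and Ucp1 was at -0.33 ± 0.22. The sum of the 4 tested distal tubule markers was 2.69 to 4.04 in corn oil and -0.28 to 2.30 in treated rats, with 2 entirely below and all 4 below 0. For the 6 podocyte markers it was 8.42 to 9.21 and 7.72 to 8.38, with 0 entirely below, and of the 9 collecting duct markers 3 were entirely below, with overlapping sums. The summed levels of thick ascending limb, endothelial, leukocyte and fibroblast markers overlapped. The part of these markers in the members' changes was not tested.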

How the data were processed

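The scanner output came from Agilent Feature Extraction, version 10.7.1.1 per the file headers and 10.7 per the submitters' processing notes. The deposited intensity is the software's processed signal, linear and with background taken off, per the file headers. The deposited flags, other than signals, mark spots well above background, saturated or outlying. The authors' value table is a deposited ratio, each intensity over its array's 75th percentile. Over 25980 probes its columns each held the values of a differently numbered array in the same group, and replicate numbers here follow the scanner files.

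Log2 processed intensities were scaled to the 75th percentile of the 61657 non-control probes per array. A probe entered if no array flagged it as an outlier (64 failed) and 1 group or both had it well above background on every array. Genes were named through RefSeq accessions (27460 probes, 15284 genes) and represented by the brightest kept probe. The fit used limma 3.58.1 (lmFit, eBayes; R 4.3.3) with no block and Benjamini-Hochberg adjustment over 11748 genes. The test was checked on simulated data. With 3 arrays per group, precision is limited by their number.

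Members and lists were chosen with earlier results of these data known. Every member is named. Array values are given for 17 fixed members, the 8 with the lowest p and the 4 with the largest change, and for Acsl1, Acads and Acaa2, chosen after their values were seen. From each other list the 2 genes with the lowest p and fixed genes are named; Acaa1b, Ucp1 and Cox8b were added after their values were seen, and the fixed gene Plin1 was not tested here. Some genes that this rule takes are not reported here. The lists were other mitochondrial and peroxisomal genes, peroxins, PPAR targets and receptors, fatty acid synthesis, the citric acid cycle and cell type markers. The alternatives were quantile, median and spike-in scaling, normexp (offset 50), the value table, other probe filters, the mean over probes, slide and replicate blocks, trend and robust settings, array weights, a threshold of 0.1 and leaving out each array.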

Additional observations from a re-analysis of the deposited data

How the results depend on the processing

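The 7 members whose treated arrays lay below all corn oil arrays did so in all 5 refits that change the array values (quantile, median and spike-in scaling, normexp, mean over probes). The 6 lower members at an unadjusted p under 0.05 kept that in all 19 refits (in limma). Not all of these could change it: the threshold of 0.1 leaves that p as it was, and the value table holds nearly the same values. The spike-in scale lowered the change of all genes (median -0.28). Both sets of members were picked on these same arrays. No member passed the adjusted threshold in the main setting or in 18 of the refits. Array weights, with 2010 genes past it, were the exception with 9 members (Acads, Hadha, Hadhb, Hadh, Eci1, Echs1, Pex11a, Ech1 and Retsat), a mitochondrial median of -0.14 and 10 lower and 6 higher members at an unadjusted p under 0.05. With these weights 13.9% of all genes were lower and 23.3% higher by that p.
The count of all genes past the threshold, 3, was 132 at a threshold of 0.1, 56 with normexp, 69 with trend and robust settings, 9 on the spike-in scale, and 0 with the mean over probes, no filter, the replicate block or the slide block. Quantile normalization gave medians of -0.27 for all and mitochondrial members and -0.040 for peroxisomal members, a difference of -0.23, 17 lower and 1 higher members by p, and 23 members entirely below. On the spike-in scale the medians were -0.41, -0.41 and -0.26, with 13 lower and 0 higher members by p and 15 entirely below and 0 above, where 20.6% and 1.01% of all genes were lower and higher by p and 25.5% and 1.32% entirely below and above. Lower members by p and members entirely below numbered 10 and 12 with the mean over probes and 10 and 11 with normexp, whose mitochondrial median was -0.14. Over all genes the shares were 8.69% and 12.0% with the mean over probes, and 5.06% and 7.35% with normexp. Median scaling put 6 members entirely above, where 22.3% of all genes were. Members of both organelles counted in a compartment gave -0.049 for the peroxisomal median and -0.051 for the difference, and the slide block -0.089 for the difference.
Leaving out each array gave 0 to 74 genes past the threshold, 2 to 4 higher and 6 to 9 lower members by p, 4 to 8 members entirely above and 7 to 12 entirely below. Of all genes, 8.32% to 20.1% were then higher and 4.67% to 10.6% lower by p. The shares entirely above and below were 22.9% to 31.9% and 12.8% to 18.5%. Medians ran from -0.11 to -0.029 (all members, lowest without treated replicate 1, highest without treated replicate 3), -0.095 to -0.023 (mitochondrial) and 0.037 to 0.076 (peroxisomal), and the difference from -0.17 to -0.083. Without treated replicate 1 another probe of Acaa1a was the brightest, the only such switch among members when an array was left out.
Directions turned after quantile normalization for Acadm (-0.14), Acads (-0.022), Etfb (-0.16), Acsm2 (-0.16), Scp2 (-0.00339), Slc34a1 (-0.15) and the citric acid cycle (-0.013). On the spike-in scale they turned for Acadm (-0.19), Acads (-0.10), Cpt1a (-0.094), Etfb (-0.20), Acsm2 (-0.17), Decr2 (-0.032), Scp2 (-0.00532), Pex14 (-0.089), Pex2 (-0.12), Esrra (-0.090), Pdk1 (-0.057), Hnf4a (-0.16), Slc34a1 (-0.12) and for the medians of other mitochondrial genes (-0.19), other peroxisomal genes (-0.26), peroxins (-0.24) and the citric acid cycle (-0.17); that of fatty acid synthesis genes went from 0.02 to -0.29. The small rises of Crat, Slc25a20, Etfa and Phyh, each within 1 standard error of 0, also went below 0 on both scales. After quantile normalization these members were at -0.18, -0.10, -0.13 and -0.04. Of genes at an unadjusted p under 0.05, 33.8% were lower under the 75th percentile, 53.7% after quantile normalization, 95.3% on the spike-in scale, 26.4% with median scaling, 22.1% with normexp and 22.9% without a filter. Over 1102 gene values compared, 19 turned direction, 27 newly passed the threshold and 32 crossed 0 within 1 standard error. The cause of these shifts was not tested.
The labels give no pairing of samples. Same-numbered arrays did not deviate together (correlations of 0.006, -0.05 and -0.03), which with 3 arrays per group cannot exclude a pairing. The replicate block left 0 members past the adjusted threshold, with 4 higher and 6 lower by p, where 11.5% and 6.59% of all genes were. It gave 0 genes past the threshold, and the slide block equals leaving out corn oil replicate 2. The number of arrays limits all of these values.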
